A study of Mus musculus with 6 samples.

Results

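The genes described here are 57 genes of G2 phase and mitosis, measured in mouse thymocytes at the double-negative (DN) stage, an early step of T-cell development before CD4 and CD8 appear. They were taken from a fixed list of gene names, each read from its brightest probe set with a single gene symbol, and 56 of them were measured among 19937 genes. Cyclin B1 (Ccnb1) had no such probe set and was not analysed here. The 6 Affymetrix arrays form 2 groups of 3. By their labels, the RAG-/- arrays hold DN thymocytes of Rag2-/- mice. These mice cannot rearrange their T-cell receptor genes, so that T-cell development there is blocked at the DN stage. Most markers of myeloid, NK and thymic epithelial cells examined were also higher on these arrays, as given below. The DNTLX3+ arrays hold sorted DN thymocytes of wild-type mice that received TLX3, a homeobox oncogene of T-cell leukaemia, from the retroviral vector pMSCV-GFP-TLX3 and were then grown on irradiated OP9-DL1 stromal cells, which present a Notch ligand, in medium with IL-7 and Flt3L. Per the labels' protocols, thymi came from C57Bl/6 mice aged 4 to 6 weeks, cells bearing CD4 or CD8 were depleted on magnetic beads before flow sorting, and the transduced cells were cultured for 4 to 5 weeks. Genotype and virus, and possibly culture, therefore differ together between the groups, as do markers of other cells, and their parts cannot be told apart. No array of cells given the vector without TLX3 was analysed here, and nothing in the labels ties a replicate to its own mouse or culture. The p-values therefore rest on the spread of these arrays alone, and that spread may be technical.

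Cells that divide make the transcripts of G2 and mitosis in a wave that begins late in S phase and ends with cell division. Cyclins A and B activate the kinase Cdk1 to start mitosis, the spindle checkpoint holds chromosomes until kinetochores are attached, and the anaphase-promoting complex then marks securin and the cyclins for destruction so that the chromosomes part. The transcription factor Foxm1 and the MuvB complex, together with NF-Y bound at CCAAT boxes, are known to switch many of these promoters on, the MuvB complex through an element called the cell cycle genes homology region. DN thymocytes divide in bursts, after Notch and IL-7 signals and after a T-cell receptor beta chain has been made. Because the arrays measure whole populations, more cells in G2 or mitosis and more RNA per cell cannot be told apart.

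Of the 56 genes, 47 had an entry in the RefSeq promoter table (GRCm38.p6), which holds 250 bases before and 50 after each gene's start. The 120 bases before the start are shown for 5 genes that rose in the DNTLX3+ arrays and for Kif23, which fell. CCAAT stands in each of these stretches, and TTTGAA in those of Cdk1, Ube2c and Cdc20 only. Capitals mark CCAAT and the homology region letters TTTGAA, on either strand (ATTGG and TTCAAA on the opposite one).
Ccnb2, chr9:70421555-70421674, minus strand: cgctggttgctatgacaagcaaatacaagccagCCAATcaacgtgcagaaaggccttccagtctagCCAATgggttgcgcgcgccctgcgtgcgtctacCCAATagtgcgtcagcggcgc
Cdk1, chr10:69352913-69353032, minus strand: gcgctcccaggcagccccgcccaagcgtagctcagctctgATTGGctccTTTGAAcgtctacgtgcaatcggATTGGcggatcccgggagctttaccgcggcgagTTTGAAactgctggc
Ube2c, chr2:164769809-164769928, plus strand: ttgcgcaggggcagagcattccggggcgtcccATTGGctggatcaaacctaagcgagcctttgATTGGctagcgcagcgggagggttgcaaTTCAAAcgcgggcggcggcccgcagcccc
Cdc20, chr4:118437344-118437463, minus strand: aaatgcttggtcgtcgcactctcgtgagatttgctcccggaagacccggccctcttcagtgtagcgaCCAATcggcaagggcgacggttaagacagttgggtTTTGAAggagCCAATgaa
Racgap1, chr15:99651657-99651776, minus strand: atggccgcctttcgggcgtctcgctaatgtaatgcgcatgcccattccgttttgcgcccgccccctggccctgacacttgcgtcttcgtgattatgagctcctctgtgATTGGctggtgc
Kif23, chr9:61946800-61946919, minus strand: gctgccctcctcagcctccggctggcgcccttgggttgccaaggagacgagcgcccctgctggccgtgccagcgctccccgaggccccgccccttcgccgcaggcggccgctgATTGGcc

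Counted from the gene start, the CCAAT letters of Ccnb2 began at -87, -54 and -21, so that neighbours stood 33 bases apart. In Cdk1 the boxes at -80 and -48 were 32 bases apart, and in Ube2c those at -88 and -57 were 31 apart. Racgap1, Ccnb2 and Kif23 hold a TTTGAA just past the start (first base at position 6, 5 and 3), outside the stretches printed. TTTGAA or TTCGAA, searched on both strands over the whole window, occurred in 37 of the 47 genes (78.7%), against 19.0% of 15613 genes on the array with an entry. CCAAT occurred in 33 of 47 (70.2%) against 41.7%. A pair of CCAAT boxes 31 to 33 bases apart, a spacing chosen after the sequences had been read, occurred in 6 of 47 (12.8%) against 1.43%. TTTGAA or TTCGAA was held by 19 of 23 members that rose, 3 of 4 that fell and 15 of 20 of the rest, with rising and falling as defined below by the test between groups; the numbers that fell are too few to set the shares against each other. A match is a description of letters and not a bound site.

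Most of the G2 and mitosis genes were somewhat higher in the DNTLX3+ arrays, and a few were lower. In what follows a gene rose or fell where limma's Benjamini-Hochberg adjusted p, taken over all 28192 probe sets tested, was under 0.05, and it is said to be called where the log2 difference (DNTLX3+ minus RAG-/-) was also at least 1 in size. Of the 56 genes, 29 rose (51.8%), 5 fell (8.93%) and 22 did neither. Over all genes 23.0% rose and 19.4% fell. Of the 29, 5 were called higher (8.93%, against 1.44% of all genes): Ccna2, Cdk1, Racgap1, Ube2c and Ccnb2. No member was called lower (5.07% of all genes were), and 5 were lower at an unadjusted limma p under 0.05 (4568 of all 19937 genes were). The median log2 difference of the members was 0.40, against 0.11 for all genes. The median of all genes moved to 0.00 after cyclic loess, and that of the members to 0.50. The count of 29 fell to 18 without RAG-/- replicate 3, and the count of 5 lower members to 3 without RAG-/- replicate 1 or without RAG-/- replicate 2 and after the values were quantile normalized again. Members that rose or fell in all 15 alternatives that kept this test numbered 18 and 3. When limma treat tested each gene against the minimum difference of 1, no member was called.

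**Figure D1:**
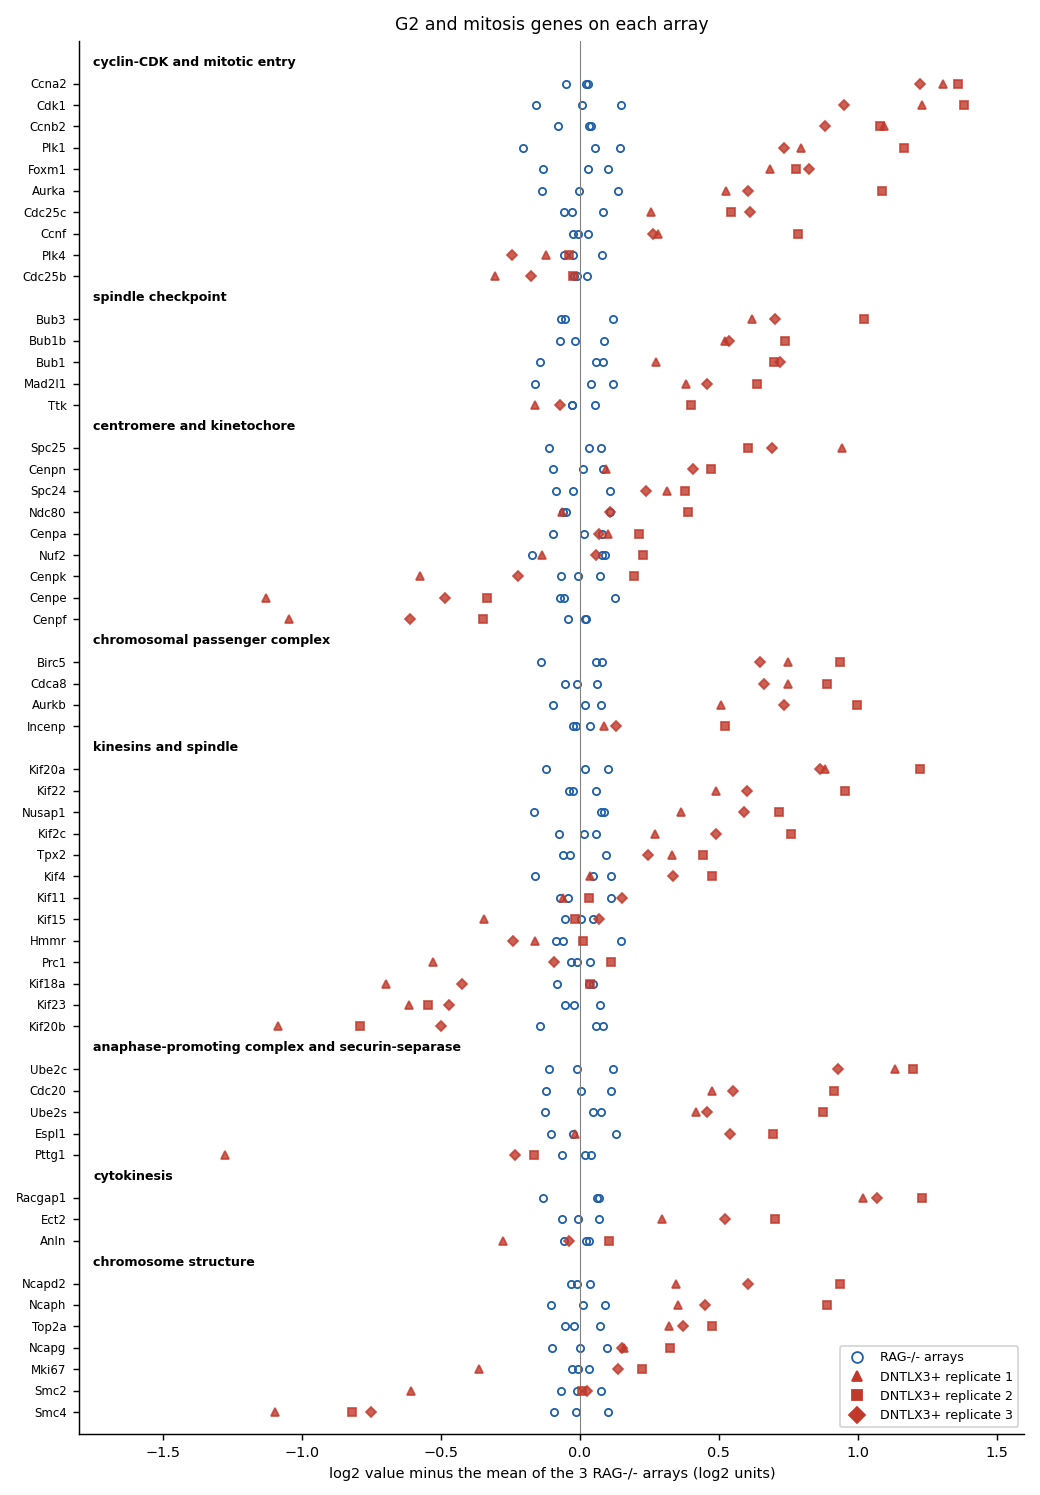
Log2 value of each of the 56 genes on each array, minus that gene's mean over the 3 RAG-/- arrays (horizontal axis, log2 units), with genes grouped by role. Open circles are RAG-/- arrays and filled symbols the DNTLX3+ replicates; the DNTLX3+ symbols lie wholly to the right of the circles for 33 genes and wholly to the left for 7.

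The arrays of a group were not equal. Replicate 2 of DNTLX3+ held the highest value of its group for 45 of the 56 genes and replicate 1 the lowest for 40. Among RAG-/- arrays, replicate 3 was the lowest for 44. The mean log2 level of the 56 genes was 8.29, 8.27 and 8.17 on RAG-/- replicates 1, 2 and 3. It was 8.38, 8.74 and 8.54 on DNTLX3+ replicates 1, 2 and 3, so that the groups did not overlap as deposited. The array medians of RAG-/- replicate 1 and DNTLX3+ replicate 1 (6.22 and 6.35) lay farther apart than these arrays' mean levels. With equal array medians the mean levels therefore overlap. The groups also did not overlap for 33 single genes with DNTLX3+ higher (58.9%, against 32.3% of all genes) and for 7 with DNTLX3+ lower (12.5%, against 26.0%). The median SD of a member was 0.09 in RAG-/- and 0.21 in DNTLX3+, and 50 members had the larger SD in DNTLX3+. The signal range of the arrays differed too: the interquartile range was 2.47 on DNTLX3+ replicate 1, 2.85 and 2.75 on replicates 2 and 3, and 3.09 to 3.18 on the RAG-/- arrays. For 9 members DNTLX3+ replicate 1 lay over 0.5 log2 units below the mean of the other DNTLX3+ replicates, and for none did it lie that far above.

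The cyclins, Cdk1 and the regulators of mitotic entry were mostly higher: 8 of 10 measured rose, 3 of them called, and none fell (median log2 difference 0.75). These shares were 80% risen, 30% called higher and 0% fallen, against 23.0%, 1.44% and 19.4% of all genes. Ccna2, cyclin A2, which drives S phase and the start of mitosis, was at 9.13, 9.12 and 9.05 on the RAG-/- arrays and at 10.41, 10.46 and 10.32 on the DNTLX3+ arrays. Every DNTLX3+ array was over 1 log2 unit above every RAG-/- array. The log2 difference was 1.30 ± 0.12 (SE, 3 arrays in each group; limma adjusted p = 0.000147), or 2.46-fold. Cdk1, the kinase at the centre of mitotic entry, was at 8.19, 8.49 and 8.35 in RAG-/- and at 9.58, 9.73 and 9.30 in DNTLX3+, a difference of 1.19 ± 0.15 (limma adjusted p = 0.000667). Ccnb2, cyclin B2, was at 9.20, 9.20 and 9.09 against 10.26, 10.25 and 10.04, a difference of 1.02 ± 0.12 (limma adjusted p = 0.00055). The groups were apart for both genes, though Ccnb2 stood close to the minimum difference and lost its call without RAG-/- replicate 3 (0.98), DNTLX3+ replicate 1 (0.98) or DNTLX3+ replicate 2 (0.99), with equal array medians (0.96) and with array weights (0.95).

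Plk1, a kinase that matures centrosomes and helps to activate Cdk1, was at 9.14, 9.23 and 8.88 in RAG-/- and at 9.88, 10.25 and 9.82 in DNTLX3+. It rose by 0.90 ± 0.16 and was called under cyclic loess (1.04) and with a repeated quantile normalization (1.03). Foxm1, the transcription factor of this gene wave, was at 7.77, 7.70 and 7.54 against 8.36, 8.45 and 8.50, a rise of 0.76 ± 0.12 (limma adjusted p = 0.00189). The centrosomal kinase Aurka rose by 0.74. The groups did not overlap for these 3 genes. Cdc25c (0.47), a phosphatase that activates Cdk1, and Ccnf (0.44), which serves a ubiquitin ligase, rose by less. Cdc25c was the only member whose RAG-/- mean (5.96) lay under the array medians (6.22 to 6.35). Its rise was not past the adjusted p in 7 of 14 alternatives, and that of Ccnf in 6 of 15. The remaining pair did not pass: Cdc25b, a phosphatase of the same family, stood at -0.17, and Plk4, which starts centriole duplication, at -0.13.

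Of 5 genes of the spindle checkpoint, which delays anaphase until all kinetochores are attached, 4 rose, none was called and none fell (median 0.57). The share that rose was 80%, against 23.0% of all genes, and 0% fell, against 19.4%. Bub3, which binds the kinetochore scaffold, was at 9.56, 9.74 and 9.55 in RAG-/- and at 10.24, 10.64 and 10.32 in DNTLX3+, a rise of 0.78 ± 0.14 (limma adjusted p = 0.00326). Bub1b, a subunit of the checkpoint complex that inhibits Cdc20, rose by 0.60, the kinase Bub1 by 0.57, and Mad2l1, which also binds Cdc20, by 0.49. For each of these 4 the groups did not overlap. The kinase Ttk, which sets the checkpoint in motion, was at 6.81, 6.73 and 6.73 against 6.60, 7.16 and 6.68, and its groups overlapped (0.056). Bub1 missed the adjusted p without RAG-/- replicate 1, RAG-/- replicate 3 or DNTLX3+ replicate 3, and Mad2l1 without RAG-/- replicate 1 or RAG-/- replicate 3.

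Genes of the centromere and kinetochore, the assembly that ties chromosomes to spindle fibres, did not move together: of 9, 1 rose, 2 fell and 6 did neither (median 0.13). These shares were 11.1% and 22.2%, against 23.0% and 19.4% of all genes, whose median was 0.11. Spc25 of the Ndc80 complex, which grips microtubules, rose by 0.75 ± 0.14 (limma adjusted p = 0.00308), from 7.55, 7.59 and 7.41 to 8.46, 8.12 and 8.21. Its partners in that complex did not pass, with Spc24 at 0.31, Ndc80 at 0.15 and Nuf2 at 0.051. Cenpf, a large coiled-coil protein of the outer kinetochore, fell by 0.67 ± 0.18 (limma adjusted p = 0.0151), from 7.65, 7.65 and 7.58 to 6.58, 7.28 and 7.02. Cenpe, a kinesin that moves chromosomes to the spindle equator, fell by 0.65 ± 0.20 (limma adjusted p = 0.0289), from 7.60, 7.40 and 7.41 to 6.34, 7.14 and 6.99. Neither overlapped between groups, and in both DNTLX3+ replicate 1 was the lowest array. Both falls missed the adjusted p after quantile normalization again and without RAG-/- replicate 1 or RAG-/- replicate 2, and that of Cenpe without RAG-/- replicate 3 as well. Cenpa, the histone variant that marks centromeres, was at 0.13, Cenpn at 0.33 and Cenpk at -0.20.

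The chromosomal passenger complex corrects faulty attachments and later guides cell cleavage. Of its 4 genes, 3 rose by nearly the same amount, none was called and none fell (median 0.76). Thus 75% rose, against 23.0% of all genes, and 0% fell, against 19.4%. Birc5 (survivin) rose by 0.78 ± 0.13, Cdca8 (borealin) by 0.77 ± 0.12 and the kinase Aurkb by 0.75 ± 0.15, with limma adjusted p of 0.0024, 0.00174 and 0.00469. Aurkb was at 8.80, 8.85 and 8.68 in RAG-/- and at 9.29, 9.78 and 9.51 in DNTLX3+. The scaffold Incenp stood at 0.25 and did not pass (limma adjusted p = 0.193), though its lowest DNTLX3+ array (8.71) was above its highest RAG-/- array (8.66). The 3 rises passed in all 15 alternatives.

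**Figure D2:**
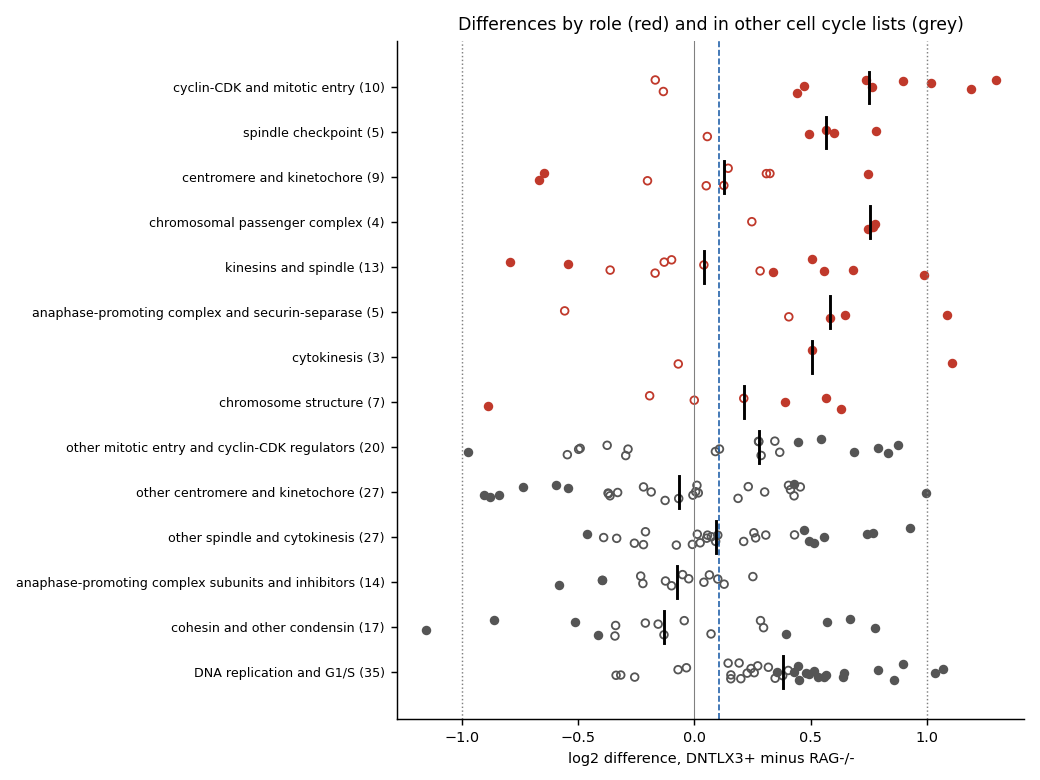
Log2 difference (DNTLX3+ minus RAG-/-) of each gene, by role for the 56 members (red) and in other cell cycle lists (grey), with the number of genes in parentheses. Filled points passed limma's adjusted p, black bars are medians, the dashed line is the median of all genes (0.11) and dotted lines mark a difference of 1 in either direction; among the 8 roles of the members the medians run from 0.041 for kinesins and spindle genes to 0.76 for the passenger complex, and among the grey lists of other mitosis genes the lowest is -0.13, for cohesin and other condensin genes.

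Motor and spindle genes spanned the widest range of differences of the 8 roles: of 13, 5 rose, 2 fell and 6 did neither, with differences from -0.79 to 0.99 and a median of 0.041. The shares that rose and fell were 38.5% and 15.4%, against 23.0% and 19.4% of all genes. Kif20a, a motor needed for cytokinesis, was at 8.07, 8.15 and 7.93 in RAG-/- and at 8.93, 9.27 and 8.91 in DNTLX3+. It rose by 0.99 ± 0.14 (limma adjusted p = 0.0011), just short of a call, and was called under cyclic loess (1.16), with a repeated quantile normalization (1.17) and without RAG-/- replicate 2 (1.04), DNTLX3+ replicate 1 (1.04) or DNTLX3+ replicate 3 (1.05). Kif22, which pushes chromosome arms, rose by 0.68, Nusap1 by 0.56, Kif2c, which depolymerises microtubules, by 0.51, and Tpx2, the activator of Aurka, by 0.34. The rise of Tpx2 missed the adjusted p in 8 of 15 alternatives, that of Kif2c in 5 and that of Nusap1 without RAG-/- replicate 3. Kif20b, a motor of the same family as Kif20a, fell by 0.79 ± 0.17 (limma adjusted p = 0.00562), from 7.63, 7.65 and 7.43 to 6.48, 6.78 and 7.07. Kif23, the motor subunit of centralspindlin, fell by 0.54 ± 0.12 (limma adjusted p = 0.00683), from 9.23, 9.14 and 9.11 to 8.54, 8.61 and 8.69. For Kif20b and Kif23 no DNTLX3+ array reached any RAG-/- array, and both falls passed in all 15 alternatives. The others were Kif4 (0.28), Kif11 (0.041), Kif15 (-0.10), Hmmr (-0.13), Prc1 (-0.17) and Kif18a (-0.36). The signs of Kif11, Kif15 and Prc1 turned under some alternatives.

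Around the anaphase-promoting complex, the ubiquitin ligase that ends mitosis, 3 of 5 genes rose, 1 of them called. That is 60% risen and 20% called higher, against 23.0% and 1.44% of all genes. Ube2c, the enzyme that loads the first ubiquitin, was at 7.71, 7.94 and 7.81 in RAG-/- and at 8.96, 9.02 and 8.75 in DNTLX3+, a difference of 1.09 ± 0.13 (limma adjusted p = 0.000547), or 2.13-fold. Cdc20, the activator of the complex, was at 8.30, 8.41 and 8.17 against 8.77, 9.21 and 8.85 and rose by 0.65 ± 0.15 (limma adjusted p = 0.00898). Ube2s, which extends the ubiquitin chain, rose by 0.58 on its brighter probe set and by 0.45 on a second; the first missed the adjusted p without RAG-/- replicate 3. The substrate and the protease that follow did not pass. Pttg1, securin, was at 7.60, 7.58 and 7.50 in RAG-/- and at 6.28, 7.40 and 7.32 in DNTLX3+, where replicate 1 lay far below the others (-0.56 ± 0.26, limma adjusted p = 0.114). Espl1, separase, stood at 0.41, with overlapping groups.

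Of 3 genes of cytokinesis, 2 rose (66.7%, against 23.0% of all genes). Racgap1, the partner of Kif23 in centralspindlin, which organises the cleavage site, was at 8.62, 8.63 and 8.43 in RAG-/- and at 9.58, 9.79 and 9.63 in DNTLX3+. The difference was 1.11 ± 0.13 (limma adjusted p = 0.000427), or 2.15-fold, so the 2 subunits of this complex differed in opposite directions between the groups. Ect2, the exchange factor that centralspindlin recruits, rose by 0.51, and the scaffold Anln stood at -0.069. The rise of Ect2 missed the adjusted p without RAG-/- replicate 1 or RAG-/- replicate 3.

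Among 7 genes of chromosome structure, 3 rose, 1 fell and 3 did neither. The shares were 42.9% risen and 14.3% fallen, against 23.0% and 19.4% of all genes. The condensin complex, which compacts chromosomes, held genes that differed in opposite directions. Its subunits Ncapd2 and Ncaph rose by 0.63 ± 0.16 and 0.56 ± 0.16 (limma adjusted p = 0.013 and 0.0203), and Ncapg stood at 0.21. The rise of Ncaph missed the adjusted p without RAG-/- replicate 1 or RAG-/- replicate 3. Its ATPase Smc4, by contrast, fell by 0.89 ± 0.14 (limma adjusted p = 0.00149), from 10.65, 10.53 and 10.46 to 9.45, 9.73 and 9.80, the largest fall among the members, and Smc2 stood at -0.19. The fall of Smc4 passed in all 15 alternatives, and no DNTLX3+ array reached any RAG-/- array. Mki67, which coats mitotic chromosomes and is used as a marker of dividing cells, was at 9.88, 9.84 and 9.82 in RAG-/- and at 9.48, 10.07 and 9.98 in DNTLX3+. Its DNTLX3+ arrays lay on both sides of the RAG-/- arrays, and the means were 9.85 in both groups (limma adjusted p = 1.00), with a difference of 0.18 without DNTLX3+ replicate 1. Top2a, the topoisomerase that untangles sister chromosomes, rose by 0.39 ± 0.12 on its brighter probe set, a rise that missed the adjusted p in 7 of 15 alternatives: each RAG-/- array left out, DNTLX3+ replicate 2 left out, equal array medians, the replicate block and the mean of its probe sets. A second, dim probe set of Top2a, under the array medians on all 6 arrays, gave -0.52 and so fell (limma adjusted p = 0.0437). The brighter one had a limma adjusted p of 0.0273, so the 2 probe sets passed in opposite directions. With both averaged the difference was -0.067.

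Gene length, the span of a gene on the chromosome, moved with the direction. Across the 56 members the log2 difference and log2 gene length had a Pearson r of -0.48, a description over genes that share the same 6 arrays. Over 9963 genes at or above the median level with a known length, r was -0.25. The 19 shortest members, up to 15.5 kb, had a median difference of 0.75, and 15 of them rose and none fell. The 19 longest, above 31.03 kb, had a median of 0.051, with 7 that rose and 3 that fell. Genes at or above the median level within the same bounds had medians of 0.0087 (3911 short genes) and -0.33 (3765 long genes). Of these short genes 885 rose and 834 fell, and of the long genes 235 rose and 1630 fell. The members that fell were Smc4 (29.9 kb), Kif23 (29.5 kb), Cenpf (47.5 kb), Kif20b (53.4 kb) and Cenpe (61.0 kb). Long members that rose included Bub1b (43.4 kb), Tpx2 (47.4 kb) and Ect2 (57.03 kb), and of the called members Racgap1 (31.2 kb) was the longest. The part of gene length in these differences was not tested.

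**Figure D3:**
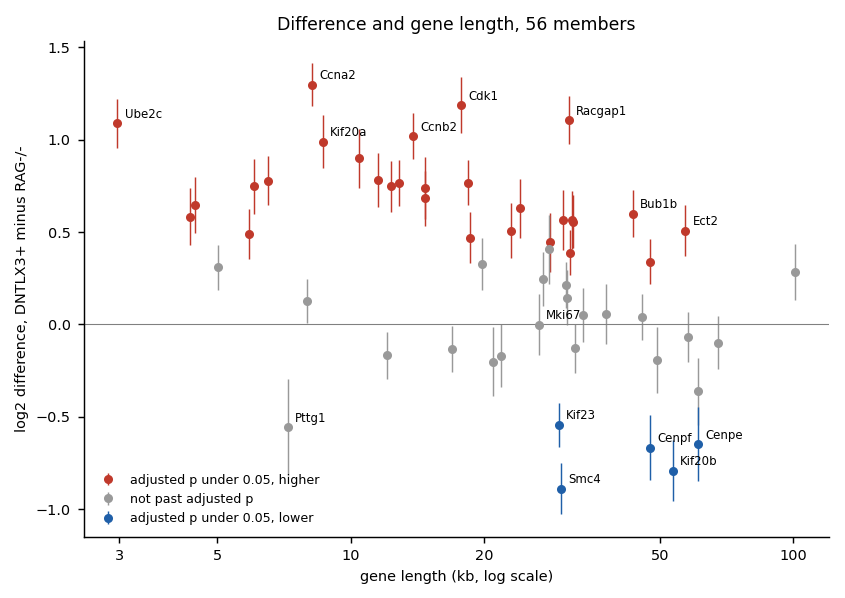
Log2 difference (DNTLX3+ minus RAG-/-) with its standard error against gene length (kb, log axis) for the 56 genes, coloured by whether limma's adjusted p was passed. The short genes on the left lie mostly above 0, and the 5 genes that fell start at 29.5 kb.

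Other genes of mitosis, in 5 lists of 105 measured genes that hold none of the 56, had a median difference of 0.017: 19 rose (18.1%), 14 fell (13.3%) and 72 did neither. Both shares lie below those of all genes (23.0% and 19.4%). The 105 were brighter than all genes, with mean levels of 8.18 and 6.61 on RAG-/- replicate 1. Of 9963 genes at or above the median level with a known length, 1391 rose and 3144 fell (median -0.16). How the 2 shares stand therefore depends on the genes set beside them. The difference between these 105 genes and the 56 members was not tested. Among mitotic entry regulators 6 of 20 rose (30%) and 1 fell (5%). The 6 included the repressor of E2F targets E2f8 (0.88), the kinase Melk (0.83), the Cdk1-binding subunit Cks1b (0.79) and the phosphatase Cdc25a (0.69), while Ensa, an inhibitor of the phosphatase PP2A in mitosis, fell by 0.97. Among 27 further kinetochore genes 2 rose (7.41%) and 6 fell (22.2%), the share that fell being near the 19.4% of all genes. Trip13, which takes the checkpoint complex apart, rose by 0.996, and Knl1 (-0.90) and Zwint (-0.84), of the platform that recruits checkpoint proteins, and Mad1l1 (-0.88), which brings Mad2l1 to kinetochores, fell. Of 27 other spindle and cytokinesis genes 7 rose (25.9%), with Kif18b (0.93) the farthest, and 1 fell (3.70%), Knstrn, by 0.46. Of 14 genes of the anaphase-promoting complex and its inhibitors, 2 fell (14.3%), Cdc27 (-0.58) and Anapc10 (-0.40). None rose by limma, also at an unadjusted p under 0.05. Of 17 genes of cohesin and related factors 4 rose and 4 fell (23.5% each), with Cdca5 at 0.78 and the cohesin loader Nipbl at -1.15. Nipbl was the only one of the 105 that was called, and it lost the call without DNTLX3+ replicate 1 and with array weights. No gene was called higher, and after quantile normalization again or cyclic loess 4 were called higher. At an unadjusted limma p under 0.05, 28 of the 105 were higher and 23 lower. Over all 19937 genes, 5898 were higher and 4568 lower by that measure.

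Genes of the earlier cell cycle steps, G1/S entry and DNA replication, had a median difference of 0.38, close in size to the 0.40 of the 56 members. Of 35 measured, 17 rose (48.6%) and by limma none fell, also at an unadjusted p under 0.05, and 2 were called, Ccne1 (1.07), the cyclin of S phase entry, and the transcription factor E2f2 (1.04), which is 5.71% against 1.44% of all genes. E2f2 lost its call with equal array medians (0.98) and without DNTLX3+ replicate 2 (0.94), and limma treat called neither gene. The difference between the replication and the mitosis genes was not tested.

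**Figure D4:**
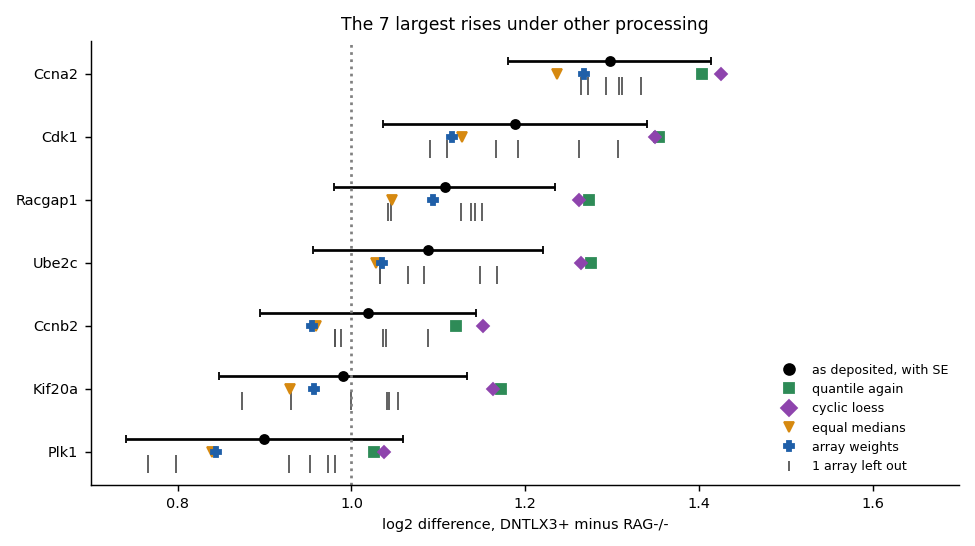
Log2 difference (DNTLX3+ minus RAG-/-, horizontal axis) of the 7 members with the largest rises, as deposited with its standard error (black), under 4 other scalings or weightings (coloured) and with 1 array left out (grey ticks). The dotted line marks the minimum difference of 1; Ccna2, Cdk1, Racgap1 and Ube2c stay to its right throughout, and Ccnb2, Kif20a and Plk1 lie on either side.

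Markers of some other cells moved with the groups. Of 15 myeloid and dendritic markers 13 fell, and their mean log2 level was 8.14 to 8.37 on the RAG-/- arrays and 5.57 to 5.82 on the DNTLX3+ arrays. Of 12 NK markers 9 fell (7.50 to 7.67 against 5.59 to 5.73), and of 11 thymic epithelial markers 8 fell (8.44 to 9.07 against 6.41 to 6.73). In DNTLX3+, 12, 9 and 6 of these markers had means under the array medians, against 1, 0 and 1 in RAG-/-. The largest falls in the 3 lists were those of H2-Aa, Ccl5 and Prss16. H2-Aa was at 10.44, 10.29 and 10.83 in RAG-/- and at 5.04, 5.39 and 4.63 in DNTLX3+. Ccl5 was at 9.90, 9.91 and 9.60 against 6.09, 6.18 and 6.09, and Prss16 at 11.18, 11.12 and 12.17 against 6.49, 5.60 and 5.59. Of 15 stromal feeder and fibroblast markers 5 fell and 2 rose (6.76 to 6.98 against 6.42 to 6.49). The 10 DN thymocyte markers were well above the array medians in both groups (11.47 to 11.53 against 10.70 to 11.02), and 8 fell. Of those 8, 3 were called lower: Dtx1 (-1.23), Il2ra (-1.19) and Ptcra (-1.11). Rag1 (0.17) and Thy1 (0.21) did not pass. Of 5 markers of double-positive and mature T cells 1 rose and 1 fell (6.03 to 6.20 against 6.12 to 6.25). Cd8b1, the beta chain of CD8, was at 5.42, 5.50 and 5.53 in RAG-/- and at 7.12, 7.11 and 6.76 in DNTLX3+ and was called higher (1.52 ± 0.14, limma adjusted p = 0.000157). The depletion of cells bearing CD8 preceded transduction and culture in that group, per the protocols. Cd8a, the alpha chain, stood at 0.12 and Cd4 at -0.34, and neither passed. Of 6 B-lineage markers 2 rose and 2 fell, with none called (5.40 to 5.51 against 5.34 to 5.52). Of 3 erythroid markers Klf1 rose by 0.94, Alas2 fell by 1.69 and Epor did neither (6.12 to 6.68 against 5.88 to 6.38). The array value of Tlx3 was 5.40, 5.42 and 5.52 in RAG-/- and 7.09, 6.52 and 6.45 in DNTLX3+, and that of Rag2 was 8.11, 8.01 and 7.95 against 7.44, 7.84 and 7.87. No source used here places the Rag2 probes relative to the deletion, so Rag2 does not check the labels. The part of other cells in the differences of the mitosis genes was not tested.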

How the data were processed

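Total RNA of 6 samples was labelled with biotin and hybridised to 1 array each. Each deposited number is a log2 value for 1 probe set. The authors obtained it with RMA in the affy package with R 2.9.0, as the submitters' processing notes list; it corrects background, quantile normalizes and summarises probes. The sources used here name no genome build for them. Of 34760 probe sets, 6568 with low ID numbers and no listed gene were set aside as likely controls. The other 28192 entered a two-sided limma fit (version 3.58.1, functions lmFit and eBayes, under R 4.3.3) on the values as deposited, without covariates, and Benjamini-Hochberg adjustment ran over the whole set. Of these, 21640 have a single gene symbol, 1321 several and 5231 none listed; those with several named no gene. Each gene was read from its brightest single-symbol probe set. Gene lengths and promoters came from RefSeq tables of GRCm38.p6 and were matched by symbol. The members, lists and tests were chosen with earlier results of these data known. The text names every called member with each array's value and the other members by their difference. Of the other cell cycle lists, called genes and the largest changes are named, with further examples chosen after their values were seen. The marker lists are described by counts and mean levels, and most of their called genes are not named. The number of arrays limits the precision. Alternatives were quantile normalization again, equal array medians, cyclic loess, 2 filters on dim probe sets, robust estimation with an intensity trend, limma treat, array weights, averaging of a gene's probe sets, a block for replicate number and leaving out each array. Plots were drawn with matplotlib 3.10.9.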

Additional observations from a re-analysis of the deposited data

How the results depend on the processing

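The median difference of the 56 genes stayed above 0 in every alternative run, between 0.28 without DNTLX3+ replicate 2 and 0.53 after quantile normalization again, and relative to the median of all genes it was 0.29 as deposited and 0.19 to 0.53 otherwise. With 1 array left out, 4 to 6 members were called higher, 0 to 0 lower, 18 to 32 rose and 3 to 6 fell; of the other mitosis genes 0 to 2 were called higher and 0 to 3 lower. Limma treat called 0 members higher and 0 of the other mitosis genes lower. After quantile normalization again 3 members fell. Of the other mitosis genes, 4 were called higher under cyclic loess and 4 with a repeated quantile normalization, 1 was called higher and 0 lower with array weights, and 2 were called lower with equal array medians. The cause of these shifts was not tested.

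Small differences changed sign. After quantile normalization again, Cdc25b was at 0.040, Plk4 at 0.063, Kif15 at 0.11, Prc1 at 0.032, Anln at 0.14, Mki67 at 0.10 and Smc2 at 0.0094. After cyclic loess, Cdc25b was at 0.0084, Kif15 at 0.076, Prc1 at 0.0076, Anln at 0.097 and Mki67 at 0.12. With equal array medians, Ttk was at -0.0044, Nuf2 at -0.0090 and Kif11 at -0.019. Mki67 was at 0.10 with array weights, and Top2a at -0.067 with its probe sets averaged. With 1 array left out, Ttk ranged from -0.12 to 0.16, Nuf2 from -0.037 to 0.14, Kif11 from -0.014 to 0.098, Kif15 from -0.18 to 0.026, Prc1 from -0.31 to 0.011, Anln from -0.16 to 0.035, Mki67 from -0.11 to 0.18 and Smc2 from -0.30 to 0.016. None of these genes but Top2a passed the adjusted p as deposited. The correlation of same-numbered arrays' deviations from their group means was -0.11, 0.060 and -0.0017. With so few arrays in a group, these values cannot decide whether same-numbered samples were handled together. The labels give such samples only a common number. With the replicate block the 5 called members stayed at 5, 26 members rose in place of 29 and 5 fell.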
